A study of Mus musculus with 6 samples.

Results

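The 39 genes described here encode nuclear hormone receptors, and they were picked by gene symbol from the 49568 gene names listed in every sample. The RNA came from 6 pools, each of 15 neurons aspirated from slices of the preBötzinger Complex (preBötC), the brainstem site that generates the breathing rhythm. All 6 mice carried Dbx1CreERT2 and Rosa26tdTomato and were at postnatal day 2, and their dams had received tamoxifen during gestation, which lets Cre switch on the red fluorescent protein tdTomato in cells whose progenitors used the Dbx1 promoter. The 3 Dbx1 samples held fluorescent neurons, and the 3 non-Dbx1 samples held neuronal somata without fluorescence, so the second group is defined by absence of label and can mix cell types. Each sample came from a different mouse. The comparison asks whether the receptors that let neurons read hormones, lipids and vitamins are used differently by the Dbx1-derived neurons, which drive the rhythm, and by their neighbours.

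Nuclear receptors are transcription factors that bind DNA directly and, in most members, are switched by a small fat-soluble ligand. Thyroid hormone, retinoic acid, vitamin D and lipid receptors sit on DNA with a retinoid X receptor (RXR) as partner, and exchange corepressors for coactivators when ligand arrives. Of the steroid receptors, those of glucocorticoids and mineralocorticoids wait in the cytoplasm on heat shock protein chaperones and enter the nucleus when hormone binds. Orphan receptors have no established natural ligand, and the REV-ERB and ROR receptors repress and activate clock genes through shared DNA elements. Thyroid hormone and retinoic acid are known for their roles in the maturation and patterning of the hindbrain.

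Levels are in RPKM, reads scaled to exon length and to the reads of the sample, so that values of different genes are per length. The samples had 6464675 to 9432958 reads on genes, worked out from the size of the steps by which RPKM values differ. Detection was taken as 3 reads, and floors given below cover counting error only, since reads of amplified cDNA are not independent molecules. The 7 neuronal marker genes were non-zero in all 6 samples, with Tubb3 (neuronal tubulin) between 684 and 1232 RPKM. Markers of other cells were uneven. Globin Hbb-bs was at 46.1 to 235 RPKM in the Dbx1 group and at 359 to 7238 RPKM in the non-Dbx1 group, and 4 of 5 erythroid markers were higher there at an unadjusted p under 0.05. The oligodendrocyte lineage genes summed to 16.5 to 73.6 RPKM in the Dbx1 group and to 46.6 to 413 RPKM in the other, highest in non-Dbx1 replicate 1. Catecholaminergic genes summed to 534 RPKM in non-Dbx1 replicate 2, where Dbh was at 339 RPKM. Motor neuron genes, led by Prph, summed to 157 RPKM in non-Dbx1 replicate 3. Endothelial genes summed to 70.0 RPKM in non-Dbx1 replicate 2, mostly from Cldn5 at 63.7 RPKM. Kdr (3.98 RPKM) and Flt1 (1.60 RPKM) were also highest in that sample. In contrast, Pecam1 was highest in Dbx1 replicate 2 (0.507 RPKM) and Cdh5 in Dbx1 replicate 3 (0.927 RPKM). The astrocyte markers, led by S100b, summed to 34.7 to 59.6 RPKM in the Dbx1 group and 52.4 to 81.2 RPKM in the other. Single astrocyte markers differed in direction, with Gfap higher in every Dbx1 sample and Slc1a3 higher in every non-Dbx1 sample. The microglial markers, led by C1qb, summed to 0.202 to 29.2 RPKM and 14.1 to 44.4 RPKM in the same order, with Itgam at 0 throughout. The non-Dbx1 samples thus differed from each other in cell content, and the part of this in the receptor values was not tested. With 15 cells a sample, a larger number of expressing cells and more RNA per cell cannot be told apart.

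Of the 39 receptors, 38 had a non-zero value somewhere. Of these, 20 were non-zero in all 6 samples, 7 in 4 or 5 samples, and 11 in 1 to 3 samples. Nr2e1, which encodes the neural stem cell receptor TLX, was at 0 in all 6 samples, which allows up to 0.125 RPKM in a single sample. Only 16 receptors had at least 3 reads in every sample. The number of receptors at 1 RPKM or more was 19, 15 and 18 in Dbx1 replicates 1 to 3, against 13, 15 and 12 in non-Dbx1 replicates 1 to 3.

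A single receptor dominated the family. Thra held 48.9% to 61.1% of the summed receptor RPKM of a sample, and the next receptor in rank stood at 6.24 to 14.2 RPKM. By mean over the 6 samples, Thra (71.6 RPKM) was followed by Rxrb (8.48 RPKM), Nr2f1 (6.36 RPKM), Nr1d1 (4.53 RPKM), Nr2f6 (4.35 RPKM), Nr1h2 (3.57 RPKM), Nr1d2 (3.57 RPKM), Rarb (3.53 RPKM), Rxrg (2.95 RPKM) and Esrra (2.93 RPKM). Among these 10 receptors, each step of the order below Thra was smaller than the SD of either neighbour over the 6 samples, so of them only Thra held its place beyond the spread. In all, 18 receptors had a mean of at least 1 RPKM, 1 had a mean of at least 10 RPKM, and 11 had a mean under 0.1 RPKM. With merged exon lengths from the annotation, 20 receptors had a mean of at least 1 RPKM and 4 of at least 10 RPKM, Thra (96.9 RPKM), Rxrb (16.7 RPKM), Nr1h2 (12.1 RPKM) and Nr2f6, while Rarb moved from rank 8 to rank 16, so below Thra and Rxrb the order depends on the length used. The lengths behind the deposited values were recovered as the smallest that give whole reads, so means with merged lengths are lower bounds.

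**Figure D1:**
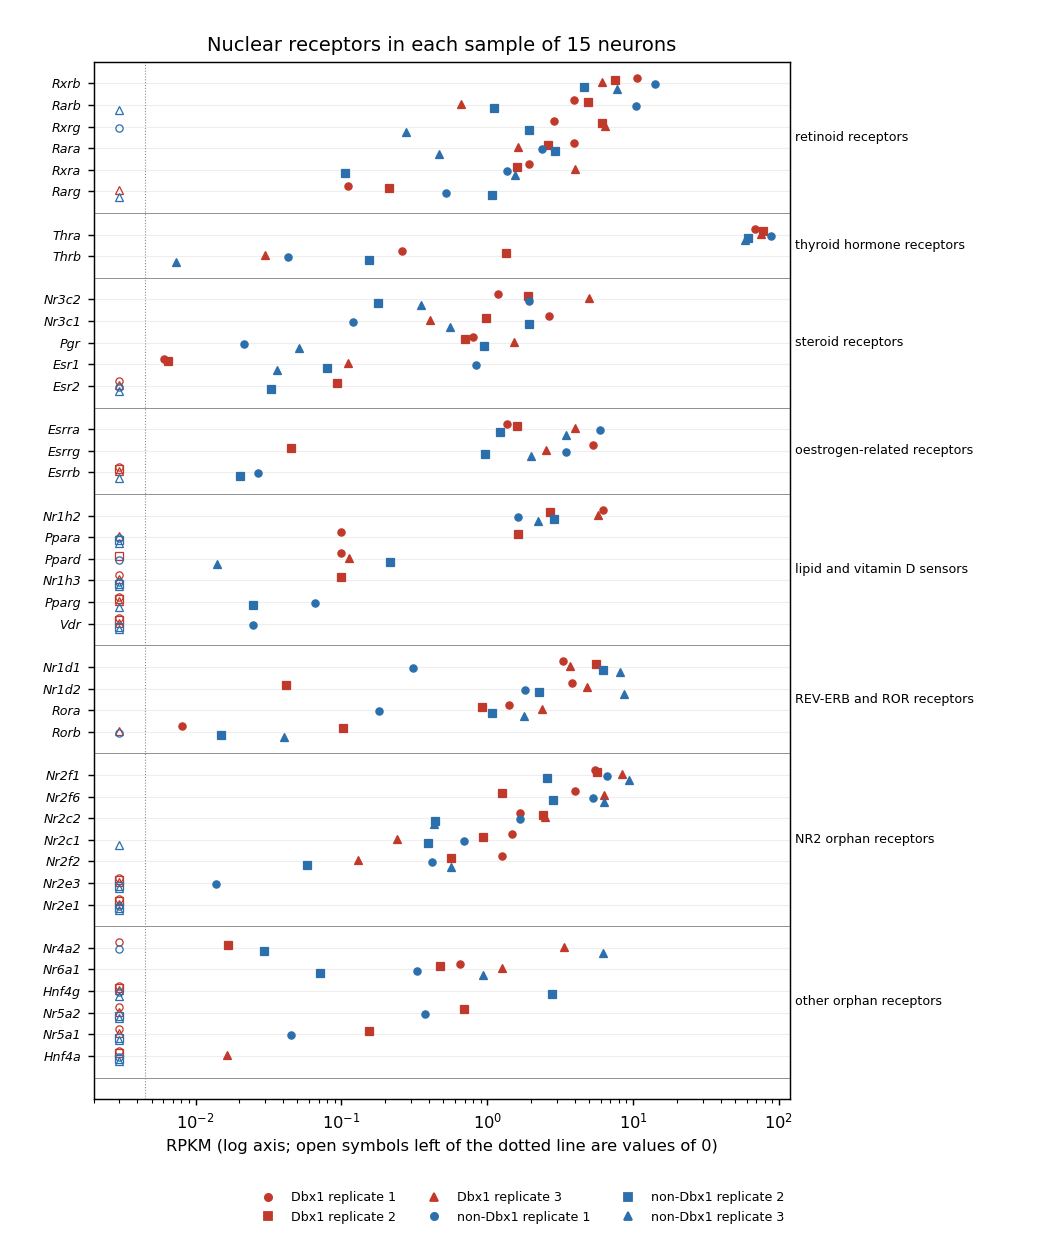
RPKM (log axis) of the 39 receptors, 1 row per gene, grouped by role, with 1 symbol per sample of 15 neurons; red symbols are Dbx1 samples, blue symbols non-Dbx1 samples and open symbols values of 0. Thra lies to the right of all other receptors in every sample, at 58.5 to 88.8 RPKM, and Nr2e1 is at 0 in every sample.

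The group comparison was fitted with limma to log2(RPKM + 1) for every gene expressed in at least 3 samples, 17614 in all, of which 27 were receptors. L2FC is the difference between the group means on this scale, positive where the Dbx1 samples were higher, and understates changes of low genes. No receptor reached an FDR under 0.1, in either direction. Over all genes tested, 0% passed in the Dbx1 direction and 0.00568% in the non-Dbx1 direction, which is 1 gene, D930028M14Rik, named after its value was seen. At an unadjusted p under 0.05, 1 receptor of 27 (3.70%) was higher in the Dbx1 samples, beside 2.73% of all genes, and 0 were higher in the non-Dbx1 samples, beside 2.48%. The groups did not overlap for 3 receptors (11.1%), Rxra, Rxrg and Nr2c2, all higher in the Dbx1 samples, beside 5.35% of all genes, and for 0 receptors in the other direction, beside 5.24%. L2FC was above 0 for 18 of the 27 receptors (66.7%) and below 0 for 9, beside 50.8% above 0 over all genes tested. The median was 0.26, against 0.0089 over all genes tested. The difference exceeded its own standard error for 10 of the 27 receptors. A pseudocount of 0.1, or voom on the recovered reads, gave larger differences for low genes, with L2FCs of 3.54 and 4.30 for Rxrg, 1.61 and 1.92 for Rxra, and 1.50 and 1.78 for Nr2c2, and no receptor passed an FDR of 0.1 with either. An exact permutation test of 3 samples against 3 cannot go below p = 0.10, the value that groups without overlap reach.

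**Figure D2:**
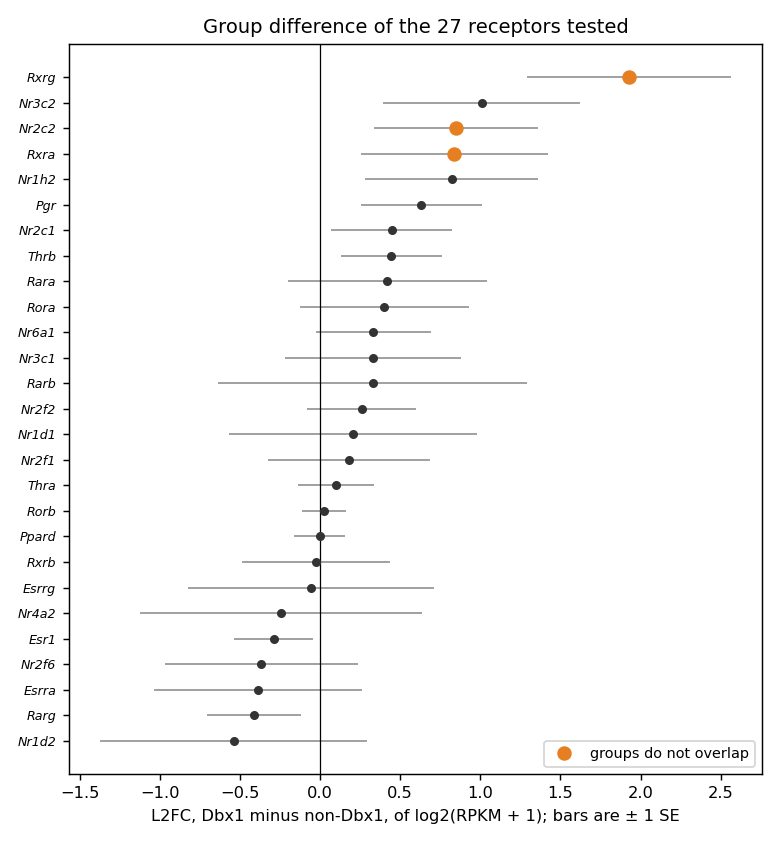
L2FC (difference in mean log2(RPKM + 1), Dbx1 minus non-Dbx1) of the 27 receptors tested, with bars of 1 SE from limma; orange points mark groups that do not overlap. Rxrg stands farthest from 0 at 1.93, and 18 receptors lie above 0 and 9 below.

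The retinoid receptors comprise the retinoic acid receptors Rara, Rarb and Rarg and their obligate partners Rxra, Rxrb and Rxrg. All 6 were tested, with L2FC above 0 for 4 and below 0 for 2. The promoters of the gene with the lowest p in the family, Rxrg, and of the textbook retinoic acid target in it, Rarb, are shown because they hold letters that nuclear receptors bind. Promoter sequences are those of RefSeq on GRCm38.p6, 250 bases before to 50 bases after a transcript start, and were matched for 35 of the 39 receptors. Capitals mark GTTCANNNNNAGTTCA, a direct repeat bound by retinoic acid receptors, in Rarb (chr14:16575427-16575726, minus strand, starting 52 bases before the transcript start) and AGGTCA, the core hexamer of many receptor elements, in Rxrg (chr1:167618015-167618314, plus strand, starting 88 bases before the transcript start).
Rarb: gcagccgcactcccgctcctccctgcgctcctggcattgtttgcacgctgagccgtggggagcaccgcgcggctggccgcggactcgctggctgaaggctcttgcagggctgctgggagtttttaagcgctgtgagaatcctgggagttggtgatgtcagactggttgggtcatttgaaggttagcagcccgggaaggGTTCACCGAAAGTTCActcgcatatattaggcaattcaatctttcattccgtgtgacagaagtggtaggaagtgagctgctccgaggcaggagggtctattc
Rxrg: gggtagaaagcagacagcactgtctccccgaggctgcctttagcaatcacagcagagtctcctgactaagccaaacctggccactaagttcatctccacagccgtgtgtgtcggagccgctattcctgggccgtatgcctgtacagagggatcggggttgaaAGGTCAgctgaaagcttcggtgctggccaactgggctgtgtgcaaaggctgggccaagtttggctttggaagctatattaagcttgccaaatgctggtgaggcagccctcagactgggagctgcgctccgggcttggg
Both strands were searched, and neither motif holds the letters of the other. The repeat was searched in the spelling that Rarb carries, so its match there was fixed in advance. It was found in 1 of 56 receptor promoters and in 0.0335% of all 32851 promoters, and these shares cannot be compared. The hexamer was found in 10 receptor promoters (17.9%), of 9 genes, against 16.3% of all promoters, so it was about as frequent in the receptors as elsewhere. A match of letters describes the sequence and not binding in these cells.

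Rxrg (ENSMUSG00000015843, chr1:167598384-167639623 on mm10) encodes the RXR subtype with the narrowest tissue pattern, known from muscle and parts of the brain. It was at 2.86, 6.17 and 6.44 RPKM in Dbx1 replicates 1 to 3, and at 0, 1.94 and 0.276 RPKM in non-Dbx1 replicates 1 to 3. The lowest Dbx1 sample exceeded the highest non-Dbx1 sample, with group means of 5.16 ± 1.99 and 0.738 ± 1.05 RPKM (SD, n = 3 each). L2FC measured 1.93 (SE 0.64, limma, unadjusted p = 0.0156, FDR = 0.870), so Rxrg did not pass the threshold over all genes. Without non-Dbx1 replicate 1, the sample with no Rxrg read and the most globin, the L2FC was 1.61 and the unadjusted p was 0.0502.

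Rxra (ENSMUSG00000015846, chr2:27676440-27762957 on mm10), the broadly expressed RXR of liver and skin, was at 1.92, 1.60 and 4.03 RPKM in the Dbx1 samples and at 1.38, 0.105 and 1.55 RPKM in the non-Dbx1 samples. The groups did not overlap, but the lowest Dbx1 sample and the highest non-Dbx1 sample nearly met, and L2FC measured 0.84 (SE 0.58, FDR = 0.936). Without non-Dbx1 replicate 2, the lowest sample, L2FC was 0.45, and quantile normalization made the groups of Rxra overlap. Rxrb (chr17:34031812-34038399), the remaining RXR, was at 10.7, 7.52 and 6.08 RPKM in the Dbx1 samples and at 14.2, 4.62 and 7.71 RPKM in the non-Dbx1 samples. Its groups overlapped widely, with an L2FC of -0.02 and a standard error of 0.46. Within each sample, Rxrb exceeded Rxra in 6 of 6 samples, by 1.83 ± 0.75 in log2(RPKM + 1) (SD, n = 6). Rxrb exceeded Rxrg in 5 of 6 samples, the exception being Dbx1 replicate 3, where Rxrg was at 6.44 RPKM against 6.08 RPKM for Rxrb, and in 6 of 6 with merged exon lengths. The Rxrb minus Rxrg difference averaged 0.59 in the Dbx1 group and 2.54 in the non-Dbx1 group.

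**Figure D3:**
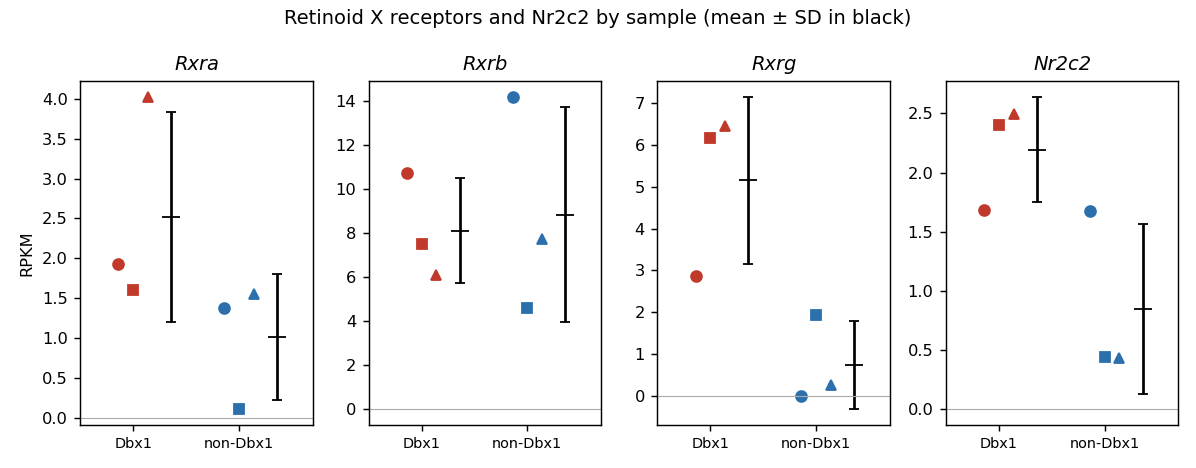
RPKM of Rxra, Rxrb, Rxrg and Nr2c2 in each sample, with Dbx1 samples in red, non-Dbx1 samples in blue and the mean ± SD of 3 samples in black; each panel has its own axis and a grey line at 0. Rxrg was between 2.86 and 6.44 RPKM in the Dbx1 samples and at most 1.94 RPKM in the non-Dbx1 samples, while Rxrb overlapped between groups.

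Rara, the most widely expressed retinoic acid receptor, was at 3.93, 2.61 and 1.62 RPKM in the Dbx1 samples and at 2.39, 2.91 and 0.465 RPKM in the non-Dbx1 samples. Rarb was at 3.94, 4.90 and 0.663 RPKM in the Dbx1 samples and at 10.6, 1.12 and 0 RPKM in the non-Dbx1 samples. The groups overlapped for both genes, and Rarb spanned the range from not detected to 10.6 RPKM within the non-Dbx1 group alone. Rara exceeded Rarb in 3 samples and fell below it in the other 3, but was the higher in 5 of 6 with merged exon lengths. The deposited Rarb values give whole reads at 3034 exon bases or a multiple of it, against 5265 in the annotation. The order of Rara and Rarb with merged lengths was therefore not settled. In the annotation, 34.1% of the exon bases of Rarb lie opposite exons of Top2b, which was at 8.69 to 26.6 RPKM. The counting did not use strand, so reads on the shared bases cannot be assigned to 1 gene. The count command of the paper named no mode for such reads, and their effect on the values was not tested. Rarg, the receptor typical of skin, was lower, with 0 to 1.08 RPKM and non-zero values in 4 samples.

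Thyroid hormone acts through Thra and Thrb. Thra (ENSMUSG00000058756, chr11:98740638-98769006 on mm10) was at 68.2, 77.3 and 75.2 RPKM in the Dbx1 samples and at 88.8, 61.6 and 58.5 RPKM in the non-Dbx1 samples. The groups overlapped, with means of 73.6 ± 4.77 and 69.6 ± 16.7 RPKM (SD, n = 3 each), and Thra had the smallest relative spread of the receptors, at 15.6% of its mean over the 6 samples. L2FC measured 0.10 (SE 0.24, FDR = 0.979). Thrb was at 0.262, 1.35 and 0.0299 RPKM in the Dbx1 samples and at 0.0429, 0.154 and 0.00735 RPKM in the non-Dbx1 samples, and it had at least 3 reads in 5 of 6 samples. Thra thus exceeded Thrb in 6 of 6 samples, by 5.85 ± 0.47 in log2(RPKM + 1) (SD, n = 6), the largest difference among the 12 pairs of related receptors compared. Thra overlaps the exons of Nr1d1 on the opposite strand by 263 bases, 5.70% of its own exon bases and 8.55% of those of Nr1d1.

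The steroid receptors were low. Nr3c1, the glucocorticoid receptor, was at 2.67, 0.984 and 0.403 RPKM in the Dbx1 samples and at 0.120, 1.95 and 0.557 RPKM in the non-Dbx1 samples. Nr3c2, the mineralocorticoid receptor, was at 1.19, 1.91 and 4.96 RPKM in the Dbx1 samples and at 1.93, 0.179 and 0.354 RPKM in the non-Dbx1 samples. Both receptors overlapped between groups, and each was the higher of the pair in 3 of 6 samples. The L2FC of Nr3c2 was 1.01, with a standard error of 0.62 (FDR = 0.936), and 0.60 without Dbx1 replicate 3, its highest sample. The progesterone receptor Pgr ranged from 0.0214 to 1.52 RPKM, with an L2FC of 0.63 and a standard error of 0.38 (FDR = 0.936). The oestrogen receptor Esr1 ranged from 0.00609 to 0.839 RPKM, with the highest value in non-Dbx1 replicate 1. Esr2, the other oestrogen receptor, was at 0.0934 RPKM in Dbx1 replicate 2, at 0.0329 RPKM (fewer than 3 reads) in non-Dbx1 replicate 2 and at 0 elsewhere.

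The oestrogen-related receptors bind no oestrogen and are known for driving mitochondrial genes with the coactivator Ppargc1a. Esrra was at 1.37, 1.60 and 3.99 RPKM in the Dbx1 samples and at 5.97, 1.22 and 3.46 RPKM in the non-Dbx1 samples. Esrrg was at 5.31, 0.0454 and 2.54 RPKM in the Dbx1 samples and at 3.45, 0.966 and 2.01 RPKM in the non-Dbx1 samples. Both genes overlapped between groups, with L2FCs of -0.39 and -0.06, and Esrrg dropped to near its floor of 0.0317 RPKM in Dbx1 replicate 2. Esrra exceeded Esrrg in 5 of 6 samples with the exon lengths behind the deposited values, but in 1 of 6 with merged exon lengths, so the order of these paralogues was not settled. Esrrb was at 0.0269 and 0.0203 RPKM in non-Dbx1 replicates 1 and 2, with fewer than 3 reads in each, and at 0 in the other samples.

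Among the lipid and vitamin D sensors, only the liver X receptor Nr1h2, a sensor of oxysterols, was present at 1 RPKM or more in every sample. It was at 6.20, 2.72 and 5.78 RPKM in the Dbx1 samples and at 1.62, 2.89 and 2.23 RPKM in the non-Dbx1 samples. Its L2FC was 0.82 with a standard error of 0.54 (FDR = 0.936), and the groups overlapped through Dbx1 replicate 2. Its paralogue Nr1h3, typical of liver and macrophages, was at 0.0998 RPKM in Dbx1 replicate 2, with fewer than 3 reads, and at 0 in the other samples. Nr1h2 exceeded it in 6 of 6 samples, by 2.07 ± 0.60 in log2(RPKM + 1) (SD, n = 6).

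The peroxisome proliferator-activated receptors, sensors of fatty acids, were sparse. Ppara was at 0.0998 and 1.62 RPKM in Dbx1 replicates 1 and 2 and at 0 in Dbx1 replicate 3 and all non-Dbx1 samples. Ppard was at 0.0992, 0 and 0.113 RPKM in the Dbx1 samples and at 0, 0.215 and 0.0139 RPKM in the non-Dbx1 samples. Pparg, the receptor of fat cells, was at 0.0661 and 0.0250 RPKM in non-Dbx1 replicates 1 and 2 and at 0 elsewhere. The vitamin D receptor Vdr was at 0.0249 RPKM in non-Dbx1 replicate 1 and at 0 elsewhere. Neither Pparg nor Vdr reached 3 reads in any sample.

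The REV-ERB receptors Nr1d1 and Nr1d2 are repressors of the circadian clock. Nr1d1 was at 3.30, 5.54 and 3.69 RPKM in the Dbx1 samples and at 0.309, 6.24 and 8.08 RPKM in the non-Dbx1 samples. Nr1d2 was at 3.79, 0.0419 and 4.83 RPKM in the Dbx1 samples and at 1.83, 2.27 and 8.66 RPKM in the non-Dbx1 samples. Each had a single low sample in a different group, non-Dbx1 replicate 1 for Nr1d1 and Dbx1 replicate 2 for Nr1d2, where Nr1d2 was below its floor of 0.0732 RPKM. Nr1d1 exceeded Nr1d2 in 2 of 6 samples. Rora, an activator at the same elements, was at 1.42, 0.923 and 2.39 RPKM in the Dbx1 samples and at 0.181, 1.08 and 1.79 RPKM in the non-Dbx1 samples. Rorb was at 0.00804, 0.102 and 0 RPKM in the Dbx1 samples and at 0, 0.0150 and 0.0407 RPKM in the non-Dbx1 samples. Rora exceeded Rorb in 6 of 6 samples, by 1.09 ± 0.53 in log2(RPKM + 1) (SD, n = 6).

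The NR2 orphan receptors include the COUP transcription factors Nr2f1 and Nr2f2, known for regional patterning of the nervous system. Nr2f1 was at 5.53, 5.70 and 8.37 RPKM in the Dbx1 samples and at 6.62, 2.56 and 9.37 RPKM in the non-Dbx1 samples. Nr2f2 was at 1.27, 0.568 and 0.130 RPKM in the Dbx1 samples and at 0.420, 0.0577 and 0.567 RPKM in the non-Dbx1 samples. Both overlapped between groups, and Nr2f1 was the higher in 6 of 6 samples, by 2.26 ± 0.58 in log2(RPKM + 1) (SD, n = 6). Nr2f6, a related receptor, ranged from 1.27 to 6.34 RPKM, and 54.4% of its exon bases lie opposite exons of Ocel1, which was at 0.146 to 2.90 RPKM.

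Nr2c2 (ENSMUSG00000005893, chr6:92091390-92174294 on mm10), the testicular receptor TR4, was at 1.68, 2.40 and 2.50 RPKM in the Dbx1 samples and at 1.68, 0.437 and 0.432 RPKM in the non-Dbx1 samples. The groups were apart only by the third decimal place between Dbx1 replicate 1 and non-Dbx1 replicate 1, and with median-of-ratios size factors they overlapped. L2FC measured 0.85 (SE 0.51, FDR = 0.936). Of its exon bases, 30.7% lie opposite exons of Mrps25, which was at 6.78 to 13.3 RPKM. Its paralogue Nr2c1, TR2, was at 1.48, 0.942 and 0.241 RPKM in the Dbx1 samples and at 0.693, 0.392 and 0 RPKM in the non-Dbx1 samples, and Nr2c2 was the higher in 6 of 6 samples, by 0.61 ± 0.53 in log2(RPKM + 1). Nr2e3, a photoreceptor gene, was at 0.0139 RPKM in non-Dbx1 replicate 1, with fewer than 3 reads, and at 0 elsewhere.

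The remaining orphan receptors were uneven between samples. Nr4a2, which encodes Nurr1 and is needed for midbrain dopamine neurons, was at 0, 0.0167 and 3.38 RPKM in the Dbx1 samples and at 0, 0.0294 and 6.18 RPKM in the non-Dbx1 samples. A single sample of each group, replicate 3 in both, thus held nearly all Nr4a2 reads, and the replicate numbers do not tie samples of the groups together. Nr6a1, the germ cell nuclear factor, was non-zero in all 6 samples at 0.0718 to 1.26 RPKM. Nr5a2 was at 0.690 RPKM in Dbx1 replicate 2, at 0.376 RPKM in non-Dbx1 replicate 1 and at 0 elsewhere. Nr5a1, the steroidogenic factor, was at 0.155 RPKM in Dbx1 replicate 2, at 0.0451 RPKM (fewer than 3 reads) in non-Dbx1 replicate 1 and at 0 elsewhere. Hnf4a, a liver receptor, was at 0.0164 RPKM in Dbx1 replicate 3, with fewer than 3 reads, and at 0 elsewhere. Hnf4g was at 2.77 RPKM in non-Dbx1 replicate 2 and at 0 in the others. This value gives whole reads at 380 exon bases or any multiple of it, against 2630 in the annotation, so the length used is not known.

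Across the 12 pairs of related receptors, 6 kept the same order in all 6 samples: Thra over Thrb, Rxrb over Rxra, Nr1h2 over Nr1h3, Rora over Rorb, Nr2f1 over Nr2f2, and Nr2c2 over Nr2c1. With merged exon lengths from the annotation, 7 pairs did. The mean difference exceeded 2 SDs over the 6 samples for 5 pairs, all of these but Nr2c2 over Nr2c1. The lengths behind the deposited RPKM can be multiples of those recovered, which are the smallest that give whole reads. The recovered lengths were above the merged exon length for 28 of 32 receptors with at least 3 reads in a sample. Their median ratio was 1.46. The length used bears on the order of levels between genes and, through the pseudocount, on the size of L2FC. No group comparison was made with merged lengths.

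**Figure D4:**
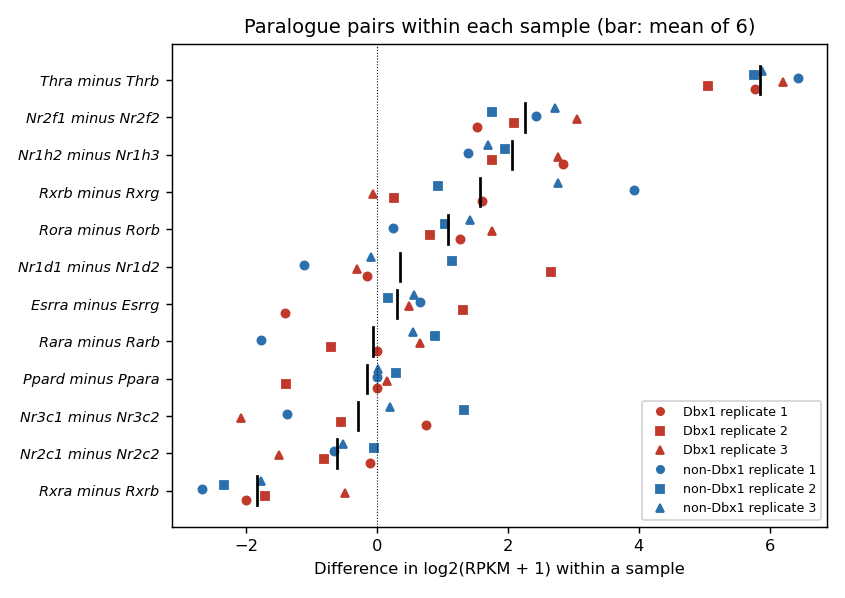
Difference in log2(RPKM + 1) between related receptors within each sample, 1 row per pair, with Dbx1 samples in red, non-Dbx1 samples in blue and a black bar at the mean of 6 samples. Thra exceeded Thrb by 5.06 to 6.43 in every sample, whereas the Rara minus Rarb and Nr3c1 minus Nr3c2 differences lay on both sides of 0.

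Other genes of these pathways were followed in 7 lists of 82 genes, of which 72 were tested. No gene reached an FDR under 0.1. At an unadjusted p under 0.05, 0 were higher in the Dbx1 samples and 4 (5.56%) were higher in the non-Dbx1 samples, beside 2.48% of all genes. L2FC was below 0 for 48 and above 0 for 24 (33.3%), beside 50.8% above 0 over all genes tested. The median was -0.20, against 0.0089 over all genes tested. The groups did not overlap for 9 genes (12.5%), all higher in the non-Dbx1 samples, beside 5.24% of all genes. The erythroid and oligodendrocyte markers lay in the same direction, with median L2FCs of -2.75 and -1.16, and their part in this was not tested.

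The 12 coactivators, which include the histone acetyltransferases and p160 proteins that ligand-bound receptors recruit, were non-zero in all 6 samples, with L2FC above 0 for 6 and below 0 for 6. Ncoa1 (8.30 RPKM) and the mitochondrial coactivator Ppargc1a (8.09 RPKM) had the highest means. The 9 corepressors, proteins through which receptors silence genes, were also non-zero in all samples, led by the deacetylase Hdac3 (34.2 RPKM) and Gps2 (15.9 RPKM), with L2FC above 0 for 2 and below 0 for 7. No gene of either list had p under 0.05. Each gene of both lists had a mean above 1 RPKM, as had 18 of the 39 receptors.

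Of the 14 genes of retinoid supply, binding and breakdown, 10 were tested, with L2FC above 0 for 2 and below 0 for 8. Crabp1, which binds retinoic acid in the cytoplasm, had the highest mean of all 82 genes, 568 RPKM. Crabp1 was at 452, 239 and 437 RPKM in the Dbx1 samples and at 956, 776 and 545 RPKM in the non-Dbx1 samples. Every non-Dbx1 sample was above every Dbx1 sample, with means of 376 ± 119 and 759 ± 206 RPKM in the Dbx1 and non-Dbx1 groups (SD, n = 3 each). L2FC measured -1.03 (SE 0.34, limma, unadjusted p = 0.0162, FDR = 0.874). The unadjusted p of Crabp1 no longer passed 0.05 when Dbx1 replicate 2, non-Dbx1 replicate 1 or non-Dbx1 replicate 2 was left out, where L2FC lay between -0.99 and -0.73. Aldh1a2, which makes retinoic acid, was at 29.5 RPKM in Dbx1 replicate 3, at 10.2 RPKM in non-Dbx1 replicate 1 and at most 0.140 RPKM in the others, and Cyp26a1, which degrades it, was at 0 in all 6 samples. These last 2 genes were chosen after their values were seen.

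The 10 genes of sterol and fatty acid response, targets of the liver X receptors and peroxisome proliferator-activated receptors, had L2FC below 0 for 8 and above 0 for 2. The sterol exporter Abcg1 had a mean of 3.87 RPKM. Mylip, a ligase that degrades the LDL receptor, was at 0, 0.781 and 0.892 RPKM in the Dbx1 samples and at 10.5, 5.42 and 5.23 RPKM in the non-Dbx1 samples. For Mylip L2FC measured -2.36 (SE 0.58, limma, unadjusted p = 0.00325, FDR = 0.724). Angptl4, a lipase inhibitor, was at 0.705, 0.116 and 0 RPKM in the Dbx1 samples and at 5.83, 2.79 and 6.19 RPKM in the non-Dbx1 samples. For Angptl4 L2FC measured -2.20 (SE 0.56, limma, unadjusted p = 0.00372, FDR = 0.724). The groups did not overlap for Mylip or Angptl4, and neither passed the threshold over all genes.

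**Figure D5:**
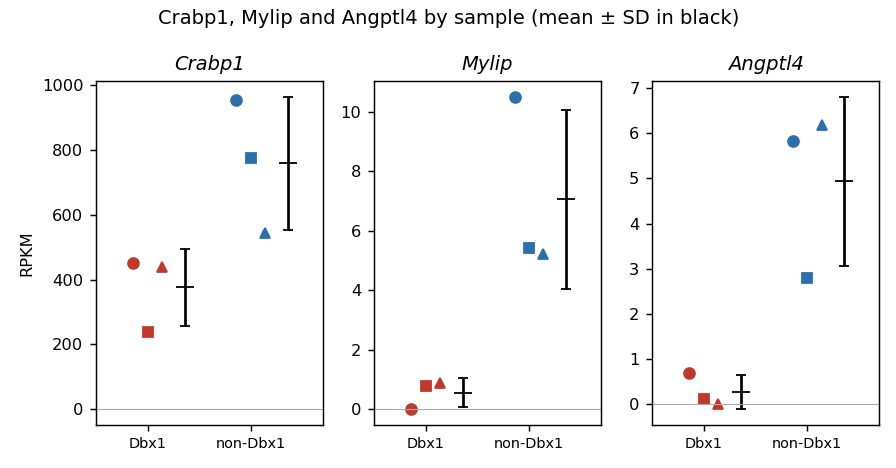
RPKM of Crabp1, Mylip and Angptl4 in each sample, with Dbx1 samples in red, non-Dbx1 samples in blue and the mean ± SD of 3 samples in black; each panel has its own axis and a grey line at 0. In all 3 panels the 3 non-Dbx1 samples lie above the 3 Dbx1 samples, for Crabp1 at 545 to 956 RPKM against 239 to 452 RPKM.

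In the remaining lists no gene had p under 0.05. Of 9 genes of thyroid hormone transport, conversion and response, 6 were tested, with L2FC below 0 for 5. The hormone-responsive factor Klf9 had a mean of 4.31 RPKM. Of the deiodinases, chosen after their values were seen, Dio1 was at 0 in every sample. Dio2 was at 0.0457 RPKM in Dbx1 replicate 2, with fewer than 3 reads, and at 0 elsewhere. Dio3 was at 1.91 RPKM in non-Dbx1 replicate 2 and at most 0.165 RPKM in the others. Of 13 genes of steroid conversion, receptor chaperones and response, 11 were tested, with L2FC below 0 for 7, and the chaperones Hsp90ab1 (292 RPKM) and Fkbp4 (64.1 RPKM) were highest. Of 15 circadian clock partners, 14 were tested, with L2FC above 0 for 7 and below 0 for 7, and Cry2 (17.4 RPKM) and Nfil3 (16.8 RPKM), both repressors, were highest.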

How the data were processed

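RNA from 6 samples of 15 neurons was amplified to cDNA and sequenced. The authors aligned reads with TopHat2 to mm10 and counted them on genes with HTSeq without using strand. They deposited RPKM per gene name, from the total exon length of each gene and the reads of each sample, without further scaling between samples. The main fit used RPKM and not counts, so limma 3.58.1 (R 4.3.3) on log2(RPKM + 1) replaced the count test of the study. It covered genes non-zero in 3 or more samples, with a mean-variance trend, two-sided, and Benjamini-Hochberg FDR at 0.1. Reads recovered from the RPKM were used for detection, for voom and for the simulated data. All p values and FDRs given without another name are limma's. At the same threshold, the count test of the study called genes in both directions, among them Hif1a, Pbx3, Gata2 and Htr1a. None of these passed here. The input, filter and scaling differed from those of the study as well as the test, and which of them mattered was not tested. The fit was tested on simulated data. There, 27 of 100 genes with a log2 change of 2 passed an FDR of 0.1, and 81 of 100 with a change of 4. These genes were drawn from those with many reads, so recovery of low genes was not covered. Each simulated gene had the median spread of genes at its level, so genes with a wider spread were not covered either. Reads and exon lengths were recovered as the smallest whole numbers that give the RPKM, so both can be too low. Other values came from Python 3.11.15, pandas 2.3.3 and scipy 1.17.1. Positions are from GENCODE on GRCm38 (mm10).

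The receptors and all lists were chosen with earlier results of these data known. Values in every sample are given for receptors with a mean of at least 10 RPKM, with p under 0.05 or groups without overlap, in the 12 pairs, or non-zero in 1 to 3 samples where 1 sample held most of the RPKM, and of each pathway list the 2 highest genes and those with p under 0.05. Some of these pathway genes are not reported here, although the list counts include them. Alternatives were other pseudocounts, filters, scalings, variance models, exon lengths, voom on recovered reads, a replicate block and each sample left out.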

Additional observations from a re-analysis of the deposited data

How the results depend on the processing

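No receptor and no pathway gene had an FDR under 0.1 under any alternative, and the lowest receptor FDR lay between 0.642 and 0.9996. Over all genes, the number with FDR under 0.1 and higher in the non-Dbx1 samples was 1, and became 0 with a pseudocount of 0.1, with RPKM above 0 in at least 1 sample and with voom, and 3 without a mean-variance trend. With a sample left out it was 0 to 1, and 0 to 1 in the Dbx1 direction. Replicate numbers gave no pairing (same-number correlations -0.11 to 0.02), and with the replicate block the count was 0 and the lowest receptor FDR 0.980. Receptors with p under 0.05 and higher in the Dbx1 samples were 2 without the trend and 2 with voom (Rxrg and Nr2c2). With a sample left out they were 0 to 2 (0 without non-Dbx1 replicate 1, and Pgr beside Rxrg without non-Dbx1 replicate 2), and 0 to 1 in the non-Dbx1 direction (Rarg, without non-Dbx1 replicate 3). Pathway genes with p under 0.05 and higher in the non-Dbx1 samples were 2 to 5 with a sample left out, and 2 without Dbx1 replicate 2, where Crabp1 was among those lost. Detected receptors were 20 with RPKM above 0 in all 6 samples and 16 with at least 3 reads in all 6.

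With a sample left out, the L2FC of Thra was -0.0091 to 0.29 (below 0 without non-Dbx1 replicate 3), that of Nr2f1 -0.26 to 0.51 (below 0 without non-Dbx1 replicate 2), that of Nr3c1 -0.049 to 0.72 (below 0 without Dbx1 replicate 1) and that of Rxrb -0.37 to 0.35 (0.0082, 0.14 and 0.35 without Dbx1 replicate 2, Dbx1 replicate 3 and non-Dbx1 replicate 1), and with voom Rxrb was at 0.058. The cause was not tested. The L2FC of Rxrg was 1.61 to 4.30 over 15 alternatives. Receptors under 3 reads are at the limit of depth.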
